A study of Mus musculus with 23 samples.

Results

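The comparison set 3 samples of mouse quadriceps muscle against 3 mouse embryonic stem cell lines. These were 6 of the 22 samples and 7 of the 23 arrays of a study of DNA methylation and gene expression during muscle formation, because line E14tg2 was hybridised on 2 arrays, which were averaged to 1 sample. Samples were chosen by tissue and cell type alone, and a skeletal muscle sample of strain NOD/ShiLtj was left out. RNA was labelled with Cy3 and hybridised to Agilent SurePrint G3 mouse arrays in 1 colour, and every spot that was not a control was read. Quadriceps 1 came from a C57BL/6J mouse, and quadriceps 2 and 3 came from 129Sv/C57BL/6J mice, all labelled male. The stem cell lines were cGR8 (strain 129Sv, male), RD1 (129X1/SvJ, male) and E14tg2 (129/Ola, with no sex given). Age and dissection of the mice and culture of the stem cells are not given in the sources used here. Each stem cell sample is a different line, so strain, line and cell type cannot be told apart from tissue. The labels do not say whether the 3 muscle samples of the set are separate animals. The p-values and standard errors below rest on the spread within all 7 replicated groups of the study, cultured myoblasts and myotubes included. Where a cultured counterpart helps, values are also given against 3 samples of primary C57BL/6J myotubes after 4 days of differentiation, which come from the same study and the same arrays.

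Quadriceps is a limb muscle built of multinucleated fibres that no longer divide. Each fibre is filled with sarcomeres, in which myosin thick filaments pull on actin thin filaments when calcium leaves the sarcoplasmic reticulum. In mice the limb muscles are made mainly of fast fibres, with slow fibres in smaller numbers, and the tissue also holds satellite cells, vessels, connective tissue, fat, nerve and blood. Embryonic stem cells are the pluripotent cells of the early embryo kept in culture, where they divide quickly under a small circuit of transcription factors that includes Oct4 (gene Pou5f1), Sox2 and Nanog.

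Levels are given as log2 of the spot's processed signal relative to the 75th percentile of its own array, so 0 is that percentile and each unit is a doubling. A level belongs to its own probe and is not set against that of another gene. Testing was limited to genes whose probe exceeded background in all 3 quadriceps samples or in all 3 lines, and a gene was called where limma's Benjamini-Hochberg adjusted p was under 0.05 with a difference of at least 2-fold. Where no sample of one group was above background, the difference is given as "at least N-fold", against the lowest signal measured above background on those arrays or the probe's own signal, whichever was higher.

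Of 36095 genes on the array, 21849 were tested. Quadriceps had 5541 genes called higher than in stem cells, which is 25.4% of those tested, and 6439 called lower, which is 29.5%. The median difference over all tested genes was -0.06 on the log2 scale and the median size of a difference was 1.37. Among the called genes, 690 were higher with no stem cell sample above background, and 1756 were lower with no quadriceps sample above background. Correlations of the arrays over genes were 0.966 to 0.979 between quadriceps samples and 0.975 to 0.987 between stem cell lines, against 0.649 to 0.668 between the groups. The groups did not overlap for 5493 of the genes called higher and 6364 of those called lower. Calls at these thresholds leave little room for overlap, so these counts describe the called genes and do not test them.

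The array labels were checked on marker genes first, and both tissues carried theirs. The 12 genes of adult fibre identity had a summed level of 10499.8 to 15056.8 times the array's 75th percentile in quadriceps, against 2.80 to 2.93 times in stem cells. The 40 genes of the pluripotency circuit summed to 36.7 to 57.2 in quadriceps, against 1688 to 2124 in stem cells. Each of the 3 slides holds 1 quadriceps sample and the first array of 1 line, and the repeat array of E14tg2 lies on slide 1 beside cGR8. Within each slide, leaving out that repeat, the median difference of the adult fibre genes was 11.58, 12.23 and 12.22.

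Quadriceps 3 went against its label of a male mouse. Ddx3y, a Y-linked RNA helicase, had 2.55, 2.76 and -5.04 in quadriceps 1, 2 and 3, against 0.45, 1.37 and 1.29 in cGR8, RD1 and E14tg2. Xist, the RNA that coats the inactive X chromosome, had -6.02, -5.78 and 0.09 in quadriceps, against -6.82, -6.73 and -6.58 in stem cells. In the library labelled quadriceps 3 the Y-linked gene was at background and Xist was present. Without it 5583 genes were called higher and 6097 lower, and of the 46 gene lists described below 21 had the same counts, with no count moving by more than 2 genes. Among the stem cell lines, Hprt, the purine salvage enzyme, had 5.41 in cGR8 and 5.46 in RD1 but -2.12 in E14tg2, a line known to lack this enzyme. Its level in quadriceps was 3.14, 3.45 and 3.69, and Hprt was not called with all lines, while without E14tg2 it fell by 2.01 on the log2 scale (adjusted p 1.21e-04).

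Genes without a RefSeq symbol and long intergenic RNAs (lincRNAs) were left out of this ranking and of that by bounds below. Among the other genes measured in every sample, the largest difference was that of Cox6a2, the heart and muscle form of cytochrome oxidase subunit 6a (probe at chr7:135349160-135349219, mm9). Cox6a2 had 10.09, 9.99 and 10.56 in quadriceps 1, 2 and 3, against -3.76, -3.42 and -3.82 in cGR8, RD1 and E14tg2. The difference was 13.88 ± 0.63 on the log2 scale (SE, n = 3 each; adjusted p 1.05e-11), and the groups lay far apart. Myh4, the myosin heavy chain of the fastest fibres (chr11:67073834-67073893, mm9), had 10.25, 10.43 and 10.71 in quadriceps, against -3.44, -2.50 and -1.93 in stem cells, a difference of 13.09. Acta1, skeletal muscle alpha-actin (chr8:126416197-126416256, mm9), had 10.80, 11.04 and 11.28 in quadriceps, against -0.73, -0.93 and -0.43 in stem cells, a difference of 11.74. All 3 genes had their highest value in quadriceps 3, and for none did the spread within quadriceps reach 1 log2 unit.

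The other leading genes of this kind were for contraction, calcium handling and oxygen storage. Tnni2, fast troponin I, was higher by 12.69. Pvalb, the calcium buffer parvalbumin of fast fibres, was higher by 12.14, and Atp2a1, the calcium pump of the fast sarcoplasmic reticulum, by 11.46. Mb, the oxygen store myoglobin, was higher by 11.47, with 9.79, 7.41 and 8.33 in quadriceps, against -2.53, -2.32 and -4.04 in stem cells. Myh8, the perinatal myosin heavy chain, was higher by 12.08. Myh1, Myh2, Myh4 and Myh8 are close copies of each other in sequence, and cross-hybridisation between their probes was not tested.

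Among genes with no stem cell sample above background, Myl1, the essential light chain of fast myosin, had 10.25, 10.30 and 10.52 in quadriceps 1, 2 and 3 and was at least 31907-fold higher than in stem cells (adjusted p 1.34e-12). Ckm, muscle creatine kinase, had 9.39, 9.96 and 10.34 and was at least 25942-fold higher. Cox8b, another muscle subunit of cytochrome oxidase, was at least 21087-fold higher. Then came Myh1 and Myh2, the myosins of the other fast fibre types, at least 10799-fold and 10124-fold higher, with Myh2 at 10.01, 6.98 and 8.23 in quadriceps. Cmya5, the desmin-binding protein myospryn, Trdn, the calcium release protein triadin, and Ampd1, muscle AMP deaminase, were at least 6970-fold, 6857-fold and 4189-fold higher. Those 8 genes were above background in all 3 quadriceps samples.

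On the lower side, Tdh, threonine dehydrogenase, an enzyme that mouse stem cells use to make glycine, had -1.05, -1.16 and -2.24 in quadriceps, against 7.81, 7.89 and 8.45 in stem cells (chr14:64111327-64111386, mm9). It was 741-fold lower (log2 difference -9.53 ± 0.66, SE, n = 3 each; adjusted p 1.55e-09), and the groups did not overlap. Mybl2, a transcription factor of dividing cells, was 673-fold lower, and Rex2, a zinc finger gene, was 661-fold lower. Birc5 (survivin), which acts at the centromere in mitosis, was 416-fold lower, Rcc2, a mitotic regulator, 276-fold, and Cdt1, which licenses origins of replication, 228-fold. H2ac4, a replication-dependent histone H2A gene with near-identical copies, was 381-fold lower. Utf1, a chromatin protein of undifferentiated cells, was 255-fold lower.

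Of genes with no quadriceps sample above background, Trh, which encodes thyrotropin-releasing hormone, had 6.87, 6.40 and 7.40 in cGR8, RD1 and E14tg2 and was at least 1389-fold lower in quadriceps (adjusted p 2.46e-09). Rhox5, an X-linked homeobox gene, was at least 964-fold lower. Zfp42 (Rex1), a classical stem cell marker, was at least 927-fold lower, Fgf4, the autocrine growth factor of the epiblast, at least 716-fold, and Pou5f1 at least 707-fold. Ccnb1 (cyclin B1) was at least 564-fold lower, Fbxo15 at least 412-fold and Bex4 at least 408-fold. Across the 3 lines Fgf4 was the most even of these genes, with 5.90, 5.98 and 5.93, and Rhox5 spanned the most, with 5.60, 7.29 and 6.20.

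**Figure D1:**
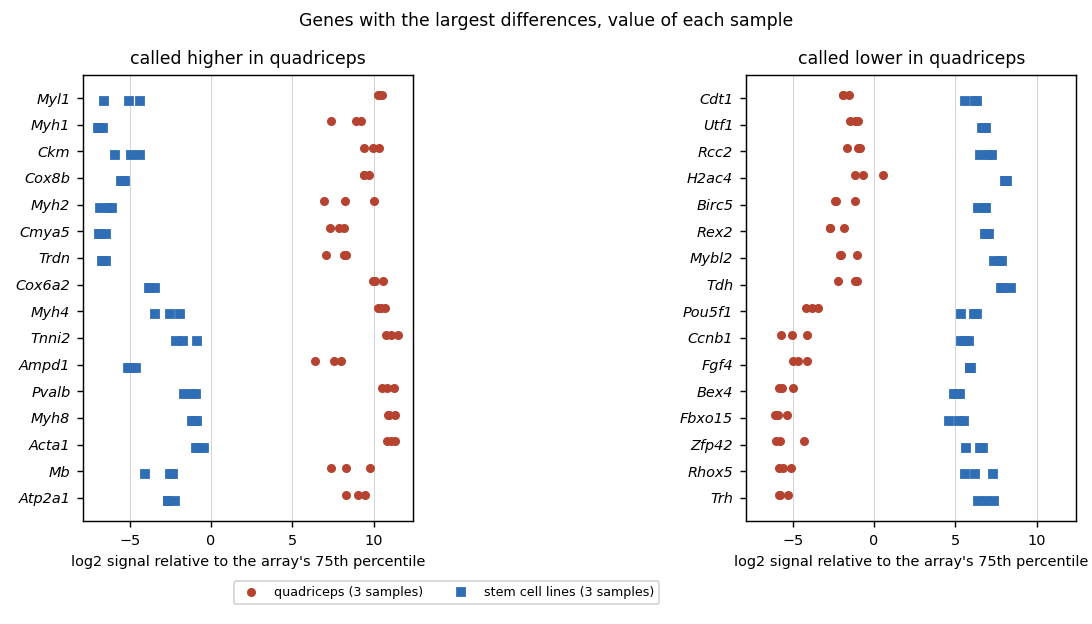
The log2 level over the 75th percentile of each array (horizontal axes) is shown for each of the 3 quadriceps samples (circles) and 3 stem cell lines (squares), for 16 genes in each direction: the 8 with the largest difference among genes above background in all 6 samples and the 8 with the largest lower bound among those above it in 1 group alone. Genes without a RefSeq symbol and lincRNAs were left out of this choice. Every gene called higher has its quadriceps samples above 6 and its stem cell samples below 0. Cox6a2, for example, has 9.99 to 10.56 against -3.82 to -3.42. Every gene called lower has its quadriceps samples below 1 and its stem cell samples above 4.

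Sequence just upstream of the start site is shown for 4 genes of the muscle fibre that were among those called higher, because short motifs known from muscle genes occur in them at different places. The sequences are the 150 bases before the start on each gene's own strand, from RefSeq (GRCm38.p6), 5′ to 3′. They are Acta1 at chr8:123894776-123894925 on the minus strand, Myh4 at chr11:67237662-67237811, Myh8 at chr11:67276974-67277123 and Klhl41, a stabiliser of nebulin, at chr2:69669970-69670119, the last 3 on the plus strand. Capitals mark matches to a CArG box (the site of serum response factor), a MEF2 site, an E-box (CANNTG, the site of MyoD-type factors) or a TATA box (TATAAA), each searched on both strands.
Acta1: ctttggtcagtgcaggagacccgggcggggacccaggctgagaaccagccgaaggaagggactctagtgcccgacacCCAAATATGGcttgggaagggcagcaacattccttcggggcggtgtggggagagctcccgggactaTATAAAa
Myh4: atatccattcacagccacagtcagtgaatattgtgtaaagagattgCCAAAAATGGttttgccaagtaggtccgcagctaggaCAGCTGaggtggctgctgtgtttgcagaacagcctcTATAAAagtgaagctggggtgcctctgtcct
Myh8: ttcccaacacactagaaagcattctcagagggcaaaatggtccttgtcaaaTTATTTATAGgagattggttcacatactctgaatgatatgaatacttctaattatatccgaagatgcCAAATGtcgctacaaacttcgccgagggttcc
Klhl41: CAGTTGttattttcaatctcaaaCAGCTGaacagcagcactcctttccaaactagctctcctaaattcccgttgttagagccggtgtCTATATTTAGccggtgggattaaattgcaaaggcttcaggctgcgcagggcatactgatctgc

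In Acta1 the CArG box ends at base -64 before the start and the TATA box begins at -7. Myh4 had a CArG box ending at -95, an E-box ending at -62 and a TATA box beginning at -31. Myh8 had a MEF2 site from -99 to -90, which overlaps a TATA box on the other strand, and an E-box ending at -27. Klhl41 had a MEF2 site ending at -54 and E-boxes ending at -145 and -122. Of the 12 adult fibre genes, 10 had a 300-base window in the RefSeq table, which runs from 250 bases before the start to 50 after it. A MEF2 site was in 3 of these 10 windows and in 3.26% of all 27025 windows, and a CArG box was in 2 of 10, against 1.57% of all. A TATA box was in 3 of 10, against 14.2%, and an E-box in 7 of 10, against 72.1%. Further motifs were searched in the same windows and are not described here. A match describes letters and not binding.

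Most contractile genes of adult fibres rose. Of the 16 adult myosin heavy and light chain genes, 15 were called higher in quadriceps and 1 lower, with a median log2 difference of 9.60. Of 16 thin filament genes 15 were tested, with 13 higher, 1 lower and a median of 9.37, or 8.39 with genes at their bounds. Tnnt3, fast troponin T, had 10.61, 10.94 and 11.09 in quadriceps, against -5.26, -4.05 and -4.46 in stem cells, where 1 of 3 samples was above background, a difference of 15.47 (adjusted p 7.20e-13). Neb, which encodes nebulin, the ruler of the thin filament, had 9.19, 9.57 and 9.47 in quadriceps, against 0.15, -1.32 and -2.53 in stem cells, a difference of 10.64. Of its other probes 1 was also called higher and 1 was called lower, that probe with no quadriceps sample above background. On this and every other list, genes that could be tested only through the group where they are high had to differ, so counts and medians of lists describe and do not test them. Here 4 myosin and 3 thin filament genes had no stem cell sample above background.

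Of 38 genes of the Z disc, the M band and their scaffold, 37 were called higher and none lower, with a median of 8.35, or 8.28 with bounds. Tcap (telethonin), the cap of titin at the Z disc, had 10.57, 10.47 and 10.44 in quadriceps, against -4.24, -4.61 and -4.07 in stem cells, a difference of 14.80. Myoz1, a calcineurin-binding protein of the fast Z disc, was higher by 13.56 and Myot (myotilin) by 12.24. Ttn, which encodes the giant spring titin, was higher by 9.64 and Des, the intermediate filament desmin, by 8.27. The member that was not called was Hspb1, a small heat shock protein, with 8.37, 7.82 and 8.16 in quadriceps, against 7.58, 8.49 and 8.26 in stem cells, so that the groups overlapped.

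The genes that couple the action potential to calcium release gave 24 higher of 25 tested and none lower, with a median of 8.37, or 8.01 with bounds. Cacna1s, the voltage sensor of the T tubule, had 8.98, 9.51 and 10.14 in quadriceps, against 0.19, -0.28 and 0.43 in stem cells, a difference of 9.43. Ryr1, the calcium release channel, was higher by 9.06 and Casq1, the calcium store protein calsequestrin, by 9.85. Mrln, which encodes the small calcium pump inhibitor myoregulin, was at least 2331-fold higher, and Cav3, muscle caveolin, at least 1880-fold. Mtm1, a phosphatase of membrane lipids, was 5.48-fold higher by its means but did not pass (adjusted p 0.0533), while another Mtm1 probe was called higher, by 1.07.

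Sarcomere genes of embryonic and cardiac muscle were mixed. Of 12 developmental sarcomere genes 11 were tested, with 5 higher, 4 lower and a median of 0.98. Those shares were 45.5% and 36.4%, beside 25.4% and 29.5% over all tested genes. Myh3, the embryonic myosin heavy chain, had 0.40, -4.45 and -3.20 in quadriceps, against 0.40, 0.76 and 0.11 in stem cells, and fell by 2.84 (adjusted p 0.00407), although quadriceps 1 lay within the range of the lines. Actc1, cardiac alpha-actin, had 8.47, 4.94 and 8.52 in quadriceps, all above the 3 lines, whose mean was -2.47, and was called higher by 9.78. Myl4, the embryonic and atrial light chain, overlapped between groups and was not called (difference 0.83). Against day 4 myotubes, with which the quadriceps samples are shared, Myh3 fell by 12.12 in quadriceps, Tnnt2, cardiac troponin T, fell by 9.85 and Myl4 fell by 7.73, and 8 of the developmental genes were lower and none higher. That comparison called 14.7% of its 18550 genes higher and 16.4% lower.

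Slow fibre genes differed widely between the 3 quadriceps samples. These genes were picked after their values had been seen. Myh7, the slow myosin heavy chain, had 8.92, 6.10 and -3.09 in quadriceps 1, 2 and 3, against -0.65, -0.76 and -0.61 in stem cells, so that quadriceps 1 and 2 were far above the lines and quadriceps 3 below them. Myh7 was called higher by 4.65 (adjusted p 0.0403). That call was lost without quadriceps 1 or 2 or any of the 3 lines, and without quadriceps 3 the difference was 8.19 (adjusted p 1.32e-06).

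Tnnt1, slow troponin T, had 8.50, 5.90 and -0.22 in quadriceps, against 2.95, 1.93 and 1.77 in stem cells, and was not called, but without quadriceps 3 it was higher by 4.98 (adjusted p 1.16e-05). Tnni1, slow troponin I, had 5.73, 2.40 and -2.36, against -2.55, -2.15 and -2.35 in stem cells, and its call of 4.27 was lost without quadriceps 1. Tnnc1, slow troponin C, had 5.38, 2.28 and -4.47, against -3.56, -3.80 and -3.47 in stem cells, and its call of 4.67 was lost without quadriceps 1 or 2. In each of these 3 genes quadriceps 1 was highest and quadriceps 3 lowest.

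Myl2 and Myl3, the slow ventricular light chains, had 8.75, 5.42 and 3.60 and 10.11, 7.05 and 4.84 in quadriceps 1, 2 and 3, and both kept the call higher with each sample left out. Atp2a2, the slow calcium pump, had 5.01, 2.39 and 0.48, against -0.34, -0.11 and -0.18 in stem cells. Its call rests on 1 of 2 probes, as the other gave a difference of 0.02. In Casq2, Myoz2, Csrp3, Ankrd2 and Myom3, also genes of slow fibres, quadriceps 1 was again highest but quadriceps 2 was lowest, as in Myoz2, a slow Z disc protein, with 6.72, 2.55 and 3.40. Of the fast genes, Tnnt3, Tnni2 and Pvalb were lowest in quadriceps 1 and highest in quadriceps 3, each within 1 log2 unit. Myh2 and Myh1 were again highest in quadriceps 1, with 9.20, 7.41 and 8.90 for Myh1. Over the 17292 genes above background in all 3 quadriceps samples the median span was 0.60, and 191 genes spanned more than 3 log2 units. Quadriceps 1 is the sample of strain C57BL/6J and quadriceps 3 the one without Y-linked signal, and the part of strain and sex in this spread was not tested.

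**Figure D2:**
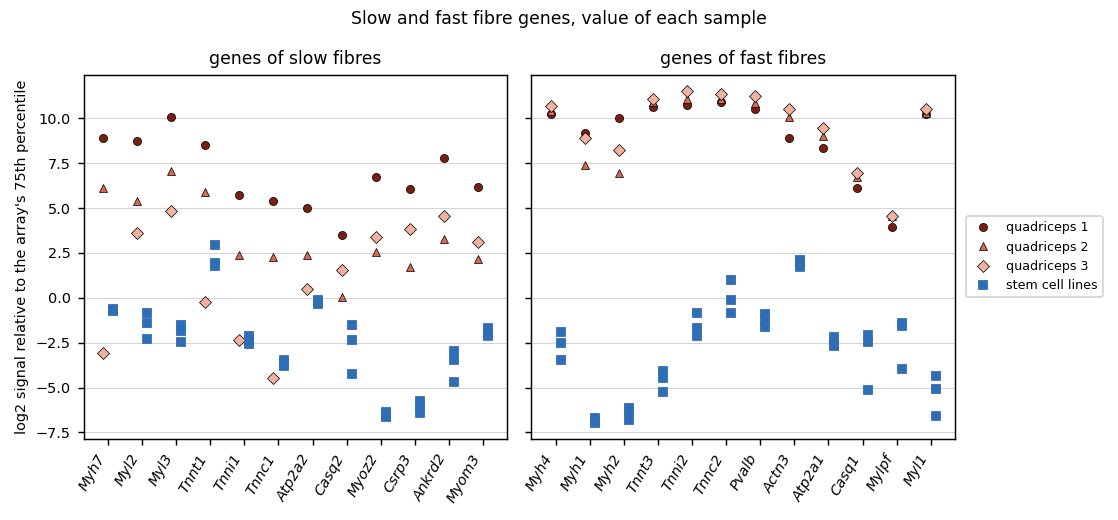
The log2 level over the 75th percentile of each array (vertical axis) is shown for 12 slow fibre genes (left) and 12 fast fibre genes (right), with a symbol for each quadriceps sample and squares for the 3 stem cell lines. Quadriceps 1 is highest for every slow gene, as for Myh7 with 8.92, while the 3 samples lie close for most fast genes, as for Tnni2 with 10.77, 11.07 and 11.52, with Myh1 and Myh2 wider.

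The dystrophin complex, which anchors the fibre membrane to the matrix, rose less uniformly. Of its 20 genes 15 were higher and 2 lower, with a median of 4.11, or 3.71 with bounds. Dmd (dystrophin) had 2.45, 2.90 and 2.86 in quadriceps and was at least 199-fold higher than in stem cells, and of its other probes 1 was also called higher and 1 had a difference of 0.24 and was not called. Sgca, alpha-sarcoglycan, was higher by 9.46 and Sspn (sarcospan) by 9.55. Dag1, the dystroglycan that many tissues carry, was higher by 1.60. Utrn, utrophin, the wide paralogue of dystrophin, fell by 1.45 (adjusted p 0.0327), a call lost without quadriceps 2 or 3, cGR8 or RD1.

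Genes of the neuromuscular junction gave 10 higher and 2 lower of 13 tested, with a median of 5.05, or 4.28 with bounds. Chrna1, the alpha subunit of the acetylcholine receptor, had 2.56, 1.55 and 3.20 in quadriceps, against -5.01, -5.76 and -4.97 in stem cells, at least 161-fold higher. Chrne, the adult epsilon subunit, was at least 19.4-fold higher, and Chrng, the fetal gamma subunit, was above background in no sample of either group. Agrn, the nerve-derived organiser agrin, was 6.74-fold lower in quadriceps and Nrg1 (neuregulin 1) at least 10.4-fold lower. Against day 4 myotubes 7 of these genes were lower and none higher, and Chrna1 fell by 6.28 and Chrnd fell by 6.55.

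Of 24 myogenic transcription factors and cofactors, 20 were tested, with 16 higher, 1 lower and a median of 5.77, or 5.23 with bounds. Myf6 (MRF4), the MyoD family member of adult fibres, had 4.13, 4.56 and 4.76 in quadriceps, against -5.97, -6.16 and -5.19 in stem cells, at least 649-fold higher (adjusted p 4.88e-07). Myod1 had 1.42, 1.56 and 2.27 in quadriceps and was at least 97.7-fold higher. Myog (myogenin) had 0.33, -0.94 and 1.51 and was at least 36.7-fold higher. Myf5, which acts earliest in the family, was above background in no sample of either group. These 3 members could be tested only through quadriceps, as no stem cell sample was above background, so their calls describe and do not test the family.

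The comparison with day 4 myotubes uses the same quadriceps samples. Myod1 fell by 3.03 in quadriceps (adjusted p 8.86e-06) and Myog fell by 6.88 (adjusted p 4.39e-08). Myf6 was 2.54 above the myotubes by its means and was not called (adjusted p 0.0933). Vgll2, a muscle cofactor of TEAD proteins, was higher in quadriceps by 10.96 against stem cells and by 6.53 against myotubes. Tbx15, a T-box factor of fast fibres, was at least 583-fold higher than in stem cells, Nfix, which controls the switch to fetal muscle genes, 674-fold and Mef2c at least 265-fold. Tead4 fell by 1.12, a call lost without quadriceps 1 or 3, RD1 or E14tg2.

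Markers of satellite cells, the resident stem cells of muscle, gave 11 higher and 1 lower of 14 tested, with 3 more not tested. Pax7, their defining factor, had -1.42, -1.89 and -1.90 in quadriceps, against -5.21, -5.21 and -5.17 in stem cells, at least 8.56-fold higher. Cdh15, M-cadherin, was higher by 5.18 and Itga7, an integrin that fibres also carry, by 5.92. In such bulk tissue fewer cells of a type and less RNA in each of them cannot be told apart. Against day 4 myotubes Pax7 fell by 2.25 in quadriceps.

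Of the 40 genes of the pluripotency circuit 38 were called lower and 1 higher, with a median of -6.42, or -5.93 with bounds. Of these 40, 14 had no quadriceps sample above background. Pou5f1, among the leading genes above, had 5.34, 6.14 and 6.35 in the lines. Sox2 had 3.49, 3.52 and 3.47 in the lines and was at least 132-fold lower in quadriceps. Dppa5a, an RNA-binding protein of stem cells, had -3.15, -3.39 and -4.77 in quadriceps, against 9.10, 8.90 and 8.99 in stem cells, a difference of -12.77 (adjusted p 1.92e-11). Across the lines Sox2 and Dppa5a varied by little, and the groups did not overlap for either.

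Not all members were off in muscle. Esrrb, an orphan receptor that partners Nanog, had 2.58, -0.26 and 0.63 in quadriceps, against 6.15, 6.79 and 7.08 in stem cells, a difference of -5.69. Klf4 was 3.31-fold lower, a call lost without quadriceps 3 or E14tg2. Tdgf1 (Cripto), a Nodal coreceptor, had 2.25, 2.33 and 0.55 in quadriceps, against 2.94, 2.36 and 1.00 in stem cells, and was not called, but its other probes with all lines above background were called lower, with no quadriceps sample above it. Nanog was called higher from the probe used, the brighter one over all 21 samples of the fit, with 1.46, 1.40 and 1.23 in quadriceps, against -1.51, -2.37 and -2.52 in stem cells. Its other probe had -5.96, -5.91 and -5.33 in quadriceps, against 5.57, 6.56 and 6.09 in stem cells. That probe was above background in all 3 lines and in no quadriceps sample. The direction for Nanog thus depends on the probe, and the 1 higher call on this list rests on the probe used.

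Germline genes, many of which stem cells transcribe at low levels, gave 22 lower and none higher of 24 tested, and 25 of the 31 on the array had no quadriceps sample above background. The median was -4.47, or -2.67 with bounds. Tex19.1, a germ cell protein that restrains retrotransposons, had 4.51, 4.78 and 4.23 in the lines and was at least 267-fold lower in quadriceps. Syce1, of the synaptonemal complex, was at least 96.6-fold lower, and Ddx4 (Vasa) at least 11.1-fold. Zscan4f, which marks the stem cells that pass through a state like the 2-cell embryo, had 3.54, 3.67 and 4.04 in the lines and was at least 157-fold lower in quadriceps. Krt8 and Krt18, the keratins of simple epithelium and early embryo, were at least 170-fold and 256-fold lower.

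Genes of the dividing cell fell together. Of 38 cell cycle and mitosis genes, 35 were tested, with 34 lower, none higher and a median of -7.06, or -5.36 with bounds. Their summed level was 31.1 to 34.7 in quadriceps, against 849 to 1150 in stem cells. Cdc20, the activator of the anaphase-promoting complex, had -2.16, -3.34 and -3.00 in quadriceps, where 1 of 3 samples was above background, against 6.17, 6.30 and 6.61 in stem cells, a difference of -9.19. Top2a, topoisomerase II alpha, was at least 199-fold lower, and Mki67, the proliferation antigen Ki-67, fell by 7.46 (adjusted p 1.62e-06). Ccnd2 (cyclin D2) was the member not called, with 1.53, 0.72 and 1.27 in quadriceps, against 0.23, -0.13 and 0.89 in stem cells.

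DNA replication genes gave 33 lower and none higher of 35, with a median of -4.16, or -3.64 with bounds. Mcm5, of the replicative helicase, had -2.12, -2.75 and -3.30 in quadriceps, against 5.55, 6.01 and 6.50 in stem cells, a difference of -8.75. Mcm6 of the same helicase was still above background in all 3 quadriceps samples, with 1.67, 0.94 and 1.05, and fell by 5.95. Rrm2, the regulated subunit of ribonucleotide reductase, fell by 7.50, and Pcna, the sliding clamp that also serves repair, fell by 3.62. Ung, a DNA repair glycosylase, had 5.27, 5.81 and 5.49 in quadriceps, against 5.23, 5.52 and 5.44 in stem cells, and was not called. Against day 4 myotubes 16 of the cell cycle genes and 9 of the replication genes were lower.

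Cell cycle inhibitors did not move as a group. Of 20 exit genes 7 were higher and 5 lower, with a median of 0.32. Those shares, 35% and 25%, were near the 25.4% and 29.5% over all tested genes. Cdkn2c (p18) was higher by 5.64, with 1 of 3 lines above background, and Gas1, a growth arrest protein, by 3.87, although another Gas1 probe had a difference of 0.30 and was not called. Cdkn2a, the Ink4a/Arf locus, fell by 4.63. Cdkn1a (p21) had 0.82, 0.52 and 2.34 in quadriceps, against 2.49, 1.65 and 2.50 in stem cells, and was not called, though another Cdkn1a probe fell by 2.65. Relative to day 4 myotubes Cdkn1a fell by 6.81 (adjusted p 1.95e-08). Rb1, the retinoblastoma gene, overlapped between quadriceps and stem cells.

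Of 16 writers and readers of DNA methylation, the subject of the study, 5 were higher and 8 lower. Those shares were 31.2% and 50%, beside 25.4% and 29.5% over all tested genes, so the share called higher was near that of all genes. Dnmt3a, a de novo methyltransferase, had 3.62, 3.46 and 3.35 in quadriceps, against 0.26 in cGR8 and no more than 0.02 in RD1 and E14tg2, and was 10.5-fold higher (adjusted p 5.53e-06). Dnmt3b, the other de novo enzyme, had -1.06, -1.27 and -1.16 in quadriceps, against 6.05, 4.68 and 5.30 in stem cells, and was 91.0-fold lower. Dnmt3l, their germline and stem cell cofactor, had 1 of 3 quadriceps samples above background and fell by 9.65.

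The maintenance enzyme Dnmt1 had -1.37, -1.54 and -1.46 in quadriceps, against 1.70, 1.75 and 2.16 in stem cells, and was 10.0-fold lower. Its partner Uhrf1, which reads hemimethylated DNA, fell by 8.33, and the remodeller Hells was at least 72.1-fold lower. The reader Mbd2 was 5.93-fold higher. Of the oxidases that start demethylation, Tet1 was 4.58-fold lower, with 1.73, 1.78 and 0.16 in quadriceps, against 3.31, 3.44 and 3.51 in stem cells. Another Tet1 probe above background in all 6 samples was 141-fold lower, so the size depends on the probe. Tet2 was not called, and Tet3 was 2.19-fold higher, a call lost without quadriceps 3 or RD1. Apobec2, a muscle relative of the cytidine deaminases, had 4.22, 4.27 and 4.55 in quadriceps and was higher by 8.39.

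Polycomb genes gave 5 higher and 16 lower of 24 tested, with a median of -2.37. Those shares were 20.8% and 66.7%, beside 25.4% and 29.5% over all tested genes. Ezh2, the methyltransferase of dividing cells, had -1.37, -0.95 and -0.95 in quadriceps, against 2.96, 3.50 and 3.38 in stem cells, and was 20.7-fold lower. Suz12 and Jarid2, its partners, were 5.63-fold and 9.69-fold lower. Ezh1, the paralogue of resting cells, was 2.09-fold higher, a call lost without quadriceps 3 or RD1, and Bmi1, of the other polycomb complex, was 12.9-fold higher. Among chromatin remodellers 12 were higher and 18 lower of 37, or 32.4% and 48.6%, beside the same 25.4% and 29.5%. Smarcd3 (Baf60c), a muscle subunit of the SWI/SNF complex, was 30.3-fold higher.

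Genes of ribosome assembly were mostly lower, and those of ribosomal proteins only in part. Of 31 tested genes of RNA biogenesis and ribosome assembly 28 were lower and none higher, with a median of -2.48 and a summed level of 231 to 314 in quadriceps, against 1561 to 1754 in stem cells. Npm1 (nucleophosmin) had 4.60, 4.58 and 4.91 in quadriceps, against 8.52, 8.43 and 8.35 in stem cells, and was 13.4-fold lower. Srm, spermidine synthase, was 25.5-fold lower and Ncl (nucleolin) 8.42-fold. Of 34 cytosolic ribosomal protein genes 17 were lower, with a median of -1.05, 16 were not called and 1 was higher. That gene was Rpl3l, the muscle form of ribosomal protein L3, with 6.95, 7.10 and 7.59 in quadriceps, against -2.62, -1.55 and -1.37 in stem cells, while Rpl3 itself fell by 3.78.

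Rpl3l was also set apart from cultured muscle. It averaged 7.21 in quadriceps and 0.29 in day 4 myotubes, a difference of 6.92 (adjusted p 8.59e-07). Against those myotubes Rpl3 fell by 2.75 in quadriceps. Enzymes of serine, one-carbon and nucleotide synthesis gave 1 higher and 23 lower of 28, with a median of -2.10. Psat1 and Phgdh, which make serine, fell by 6.69 and 5.54, Gldc, which cleaves glycine, fell by 7.03, and Slc7a3, a transporter of arginine, was at least 353-fold lower.

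Of 56 respiratory chain genes 53 were higher and 1 lower, with a median of 1.94 and a summed level of 14075 to 17902 in quadriceps, against 4213 to 5144 in stem cells. Atp5b, of the ATP synthase, was 2.24-fold higher. Atp5c1, another ATP synthase subunit, was the member called lower, by 3.97-fold, while its other probe had a difference of 1.33 and was not called. Against day 4 myotubes none of the 56 was called in either direction, with a median of 0.38.

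Of 28 genes of the TCA cycle and ketone use 26 were higher and none lower, with a median of 2.32. Oxct1, the first enzyme of ketone oxidation, had 7.16, 6.50 and 6.83 in quadriceps, against 2.69, 3.17 and 2.96 in stem cells, and was 14.8-fold higher. Cs, citrate synthase, was 6.39-fold higher. Among 35 genes of fatty acid uptake and oxidation 30 were higher and 3 lower, with a median of 2.80. Cpt1b, the muscle gate of mitochondrial fatty acid import, had 5.02, 4.72 and 5.06 in quadriceps, against -2.45, -3.75 and -3.07 in stem cells, and was 260-fold higher.

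Cpt1a, the wide paralogue of that enzyme, was 3.68-fold lower. Pdk4, which restrains pyruvate oxidation, was 164-fold higher, and Cd36, a fatty acid transporter that vessels and fat also carry, at least 238-fold. Ucp3, the muscle uncoupling protein, overlapped between the groups and was not called (1.34-fold), while another Ucp3 probe was called higher, with no line above background. Against day 4 myotubes 20 genes of this list were higher and 1 lower, and Cpt1b was higher by 4.31.

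Glycolysis and glycogen genes moved in both directions, with 28 higher and 9 lower of 40 and a median of 2.72. Pygm, muscle glycogen phosphorylase, had 8.48, 9.12 and 9.48 in quadriceps, against 0.07, -0.92 and -0.41 in stem cells, and was 698-fold higher. Slc2a4 (GLUT4), the insulin-sensitive glucose transporter, had 8.12, 8.05 and 8.29 in quadriceps, against -0.25, -0.56 and -0.74 in stem cells, and was 407-fold higher. Slc2a1 and Slc2a3, the transporters of growing and embryonic cells, were 29.4-fold and 86.4-fold lower. Gapdh, common to all cells, was 2.22-fold higher, a call lost without quadriceps 3 or RD1.

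Regulators of this metabolism were mostly higher. Of 25 metabolic nuclear receptors and coactivators 24 were tested, with 19 higher and 3 lower and a median of 3.25. Ppargc1a (PGC-1 alpha), a coactivator of mitochondrial genes, had 3.55, 2.99 and 2.65 in quadriceps and was at least 249-fold higher than in stem cells. Perm1, which acts with it in muscle, was at least 1040-fold higher, and Esrra, a receptor it works through, was 9.97-fold higher. Tfam, the mitochondrial transcription factor, overlapped between the groups and was not called (2.86, 2.98 and 3.25 in quadriceps, against 3.05, 3.75 and 3.89 in stem cells), and Nrf1 was 2.55-fold lower.

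**Figure D3:**
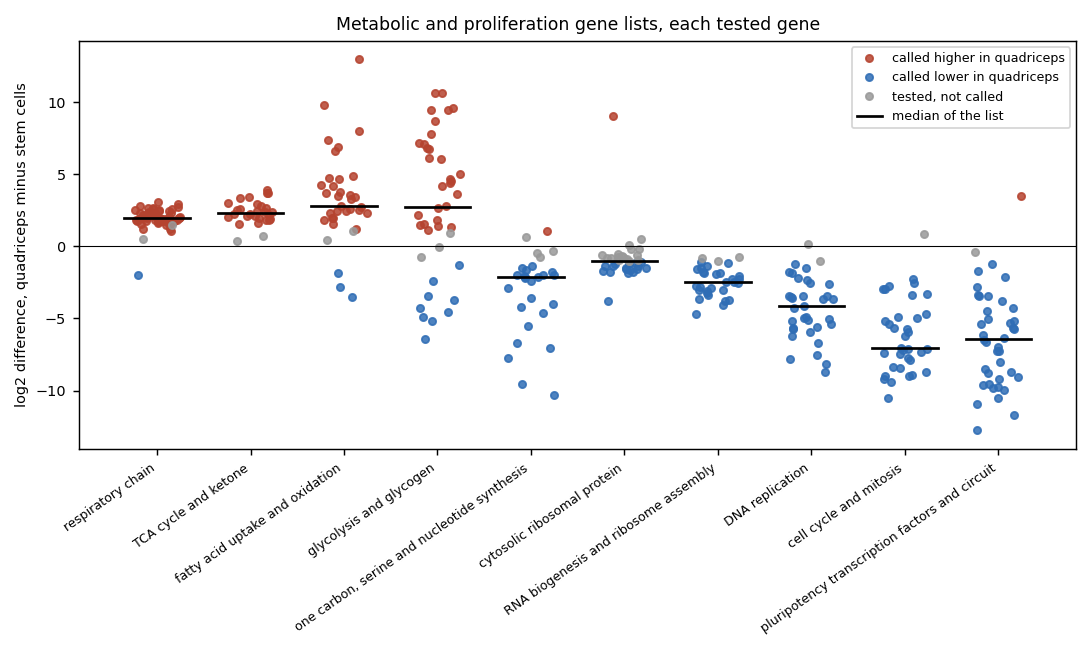
The log2 difference of quadriceps minus stem cells (vertical axis) is shown for every tested gene of 10 lists (horizontal axis), with red for genes called higher, blue for genes called lower, grey for genes not called and a bar for the median of each list. The respiratory chain lies in a narrow band around 1.94, the glycolysis and glycogen genes spread from well below 0 to above 10, and the cell cycle list has its median at -7.06.

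Paralogues of one family moved apart in most pairs looked at. Of 38 pairs of genes of one family, 27 had the first gene called higher and the second lower. Not every first gene is a muscle form, as in Ezh1 and Ezh2, and the count describes the pairs chosen. Ckm was at least 25942-fold higher while Ckb, the brain form of creatine kinase, fell by 4.19. Cox6a2 was higher by 13.88 and Cox6a1 fell by 1.85, a change of 15.73 ± 0.57 (SE) in their log2 ratio within the arrays. Cox8b was at least 21087-fold higher and Cox8a fell by 1.71. These pairs show unequal change of the genes and not their levels against each other.

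Further pairs with this pattern were Pgam2 and Pgam1, phosphoglycerate mutases (9.61 and -4.53), Eef1a2 and Eef1a1, elongation factors (10.19 and -3.51), and Tuba8 and Tuba1b, alpha-tubulins (10.03 and -4.04). Acta1 and the cytoplasmic actin Actb differed by 11.74 and -1.61. Slc25a4 and Slc25a5, the ADP/ATP carriers, differed by 4.06 and -3.28. Both genes rose in 4 pairs, which were Atp2a1 and Atp2a2, Mef2c and Mef2d, Cox7a1 and Cox7a2, and Ndrg2 and Ndrg1. The call of Cox7a2 was lost without quadriceps 1 or 3, cGR8 or RD1, and that of Ndrg1 without any sample other than E14tg2, while the other probe of Atp2a2 was not called. In the single pair where both genes fell, Tubb6 and Tubb5, beta-tubulins, differed by -1.95 and -4.31.

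In Ldhb and Ldha, subunits of lactate dehydrogenase, the order was the other way, with -0.03 for Ldhb, the heart form, which was not called, and 1.33 for Ldha. Ldhb had 7.81, 4.69 and 6.45 in quadriceps, a wider span than the 5.98 to 6.64 of the lines. Rps27l and Rps27, ribosomal proteins, had -0.83 and -0.77 and neither was called.

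Markers of the other cells in the tissue were higher too. Of 20 endothelial genes 14 were higher and none lower, with a median of 4.29, or 3.49 with bounds, and their summed level was 302 to 467 in quadriceps, against 45.7 to 54.2 in stem cells. Cdh5 (VE-cadherin) had 2.21, 1.47 and 0.93 in quadriceps and was at least 86.7-fold higher. Pecam1 (CD31) was not called (1.35-fold), nor was Kdr, a VEGF receptor (1.44-fold), although another Kdr probe was called higher, by 4.83. In comparison with day 4 myotubes 19 of the 20 were higher.

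The 15 genes of fibro-adipogenic progenitors and fibroblasts gave 13 higher and none lower, with summed levels of 533 to 690 in quadriceps, against 7.28 to 12.4 in stem cells. Pdgfra, their surface marker, had 0.60, 0.43 and 0.90 in quadriceps and was 25.2-fold higher. Dcn (decorin), a matrix proteoglycan, had 8.20, 8.14 and 7.62 in quadriceps, against -3.04, -4.85 and -4.31 in stem cells, and was higher by 12.06. Of 25 leukocyte genes 19 were tested, with 13 higher and none lower, and summed levels of 80.9 to 111 in quadriceps, against 19.8 to 34.0 in stem cells. C1qc, made by tissue macrophages, was at least 58.6-fold higher, and Ptprc (CD45) was above background on only 1 sample of each group and was not tested.

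Fat cell genes varied between the quadriceps samples. Of 14 genes 13 were tested, 11 were higher and none lower, with a median of 6.62, and summed levels were 533 to 1756 in quadriceps, against 4.14 to 5.95 in stem cells. Cfd (adipsin) had 6.26, 6.02 and 9.20 in quadriceps, and Retn (resistin) had 2.59, 2.61 and 5.51. Both were highest in quadriceps 3, and both were called higher, by 11.54 and 6.98. The share of this cell type in the differences of the fatty acid genes was not tested.

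Red blood cell genes were higher for 7 of 7 tested, with Hba-a2, an alpha-globin with a near-identical copy, at 8.68, 9.20 and 9.12 in quadriceps, against -0.12, -1.28 and -0.78 in stem cells. The tendon genes, 8 higher and 1 lower of 9, were summed at 22.1 to 102 in quadriceps, against 0.830 to 1.59 in stem cells, and Tnmd (tenomodulin) had 1.14, -0.50 and -2.17. Of 14 smooth muscle and pericyte genes 10 were higher, with Rgs5, a pericyte marker, at least 362-fold higher, while Tagln (SM22) overlapped and was not called. Schwann cell and nerve genes were split, with 5 higher, S100b at least 33.5-fold, and 5 lower, the neurofilament gene Nefh at least 112-fold. Either count was 35.7% of 14 tested, beside 25.4% higher and 29.5% lower over all tested genes. Keratinocyte genes, which would mark skin, had 1 higher and 3 lower of 7, and Krt14 was not called (1.08-fold).

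Genes that mark position along the body were mostly below background in the lines. Of 45 genes on the Hox list 29 were tested, with 21 higher, 1 lower and a median of 4.03, or 3.13 with bounds, and 27 of the 45 had no stem cell sample above background. Hoxc9 had 3.17, 3.78 and 3.59 in quadriceps and was at least 340-fold higher, and Hoxc10, which marks the hindlimb level, at least 164-fold. Pitx1, the hindlimb factor, was at least 8.76-fold higher, at -1.49, -1.88 and -1.83. Tbx5, a forelimb factor, was at least 7.57-fold higher, with a mean of -1.98 in quadriceps.

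Imprinted genes had no common direction, with 5 higher and 7 lower of 26 tested and a median of -0.12. Their shares, 19.2% and 26.9%, were near the 25.4% and 29.5% over all tested genes. H19, a long RNA of the Igf2 locus, had 8.31, 5.87 and 7.74 in quadriceps, against 0.51, 2.49 and -0.41 in stem cells, and was 86.9-fold higher. Peg10 and Phlda2, placental genes, were at least 15.7-fold and 33.4-fold lower, and Igf2 itself overlapped and was not called. Of 45 matrix genes 41 were tested, with 31 higher and 6 lower. Lama1, the laminin chain of the early embryo, had 3.69, 5.21 and 5.08 in the lines and was at least 296-fold lower in quadriceps, whereas Lama2, the chain of the muscle basement membrane, was 134-fold higher.

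Of 26 genes for secreted factors and muscle wasting 25 were tested, with 17 higher and none lower. Mstn (myostatin), the inhibitor of muscle growth, had 1.46, 2.98 and 3.04 in quadriceps and was at least 168-fold higher, and Fbxo32 (atrogin-1), a ubiquitin ligase of muscle wasting, was 164-fold higher. Of 15 tested clock genes 12 were higher and 1 lower, among them Dbp (8.48-fold) and Arntl (4.30-fold), and the hour of collection is not given in the sources used here. Of 35 interferon and antigen presentation genes 17 were higher and 6 lower, with B2m, the MHC class I light chain, 8.62-fold higher. Ifitm1, which also marks early germ cells, was 200-fold lower.

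**Figure D4:**
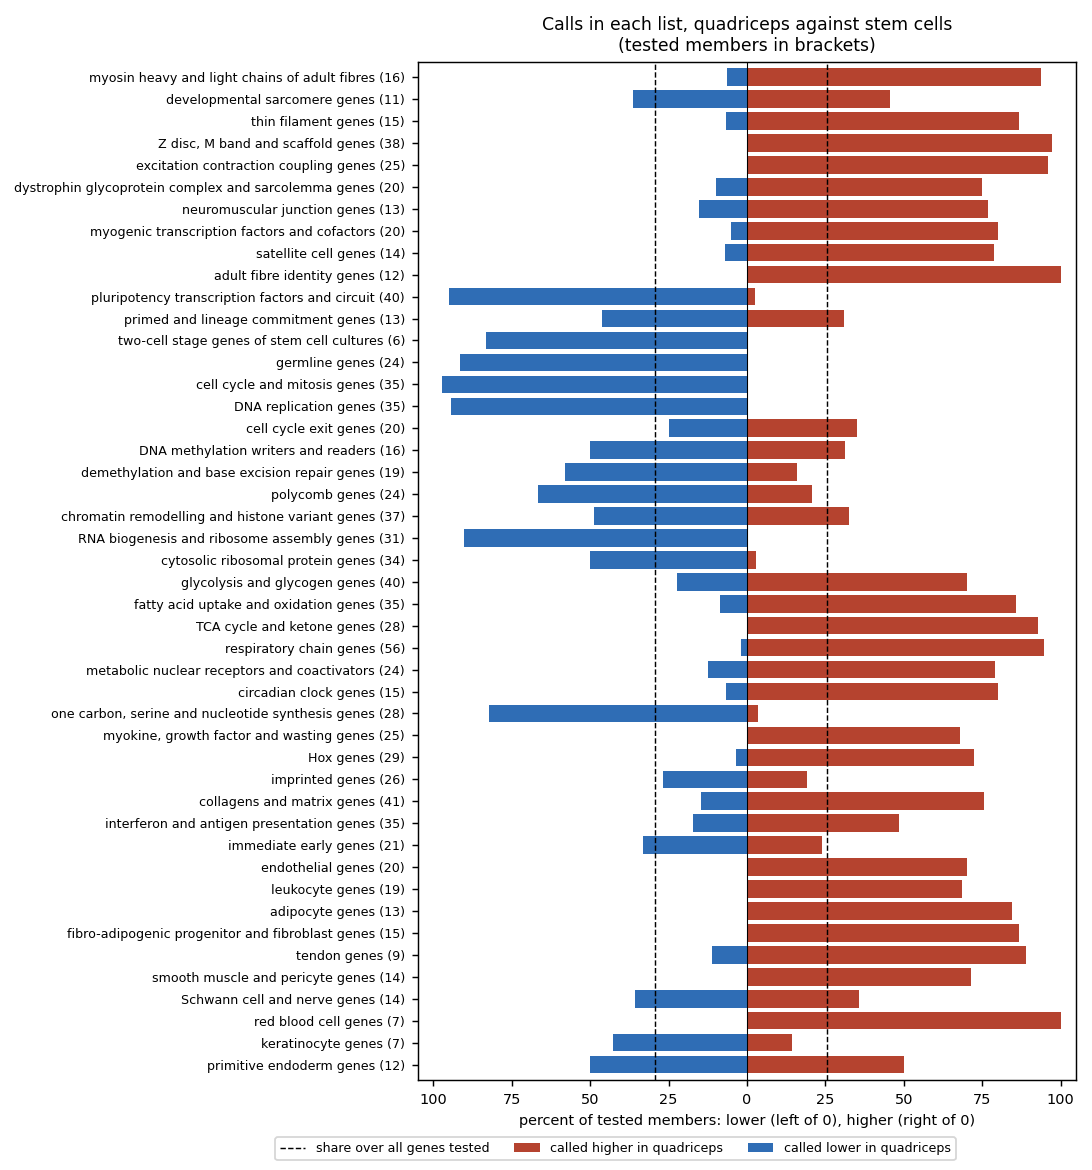
The share of tested members called higher (red, right of 0) and called lower (blue, left of 0) in quadriceps against stem cells is shown in percent (horizontal axis) for 46 gene lists (vertical axis), with dashed lines at the shares over all tested genes, 25.4% higher and 29.5% lower. All 12 adult fibre genes are called higher and 34 of 35 tested cell cycle genes are called lower.

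Each call above was read from the brightest probe of its gene, and the 3 samples a group limit the precision. Of 836 called genes on the lists, 776 kept the call with each of the 6 samples left out in turn.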

How the data were processed

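Each array was read from its own scanner text. Per the file headers, the authors' spot intensities come from Agilent Feature Extraction 10.7.3.1, which subtracted background and detrended within the array, and probe positions are in build mm9. The deposited flags, which mark spots above background, saturated or outlying, were used as given. The authors' deposited table of log2 values, whose normalization is not given in the sources used here, served as an alternative only.

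From these, log2 of the processed signal minus the 75th percentile of the array was taken, outlier spots were dropped, spots of 1 probe were averaged, and the brightest probe stood for its gene. The 2 arrays of E14tg2 were averaged, the second being labelled a technical repeat. Names came from RefSeq (GRCm38.p6): of 55681 probes 26582 matched by accession, 2602 by symbol and 492 by synonym, and 26005 kept the name in the file.

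All 7 groups with replicates (21 samples) entered 1 limma fit (limma 3.58.1, R 4.3.3) with moderated variances, and p-values were adjusted by Benjamini-Hochberg over all tested genes. The model was tested on simulated data. Named genes were the 8 with the largest difference in each direction among those measured in all 6 samples without overlap, the 8 with the largest bounds, up to 4 of each list in each direction with any other member that did not pass or whose role is described, both genes of each pair, and regulators of muscle, pluripotency and DNA methylation; slow fibre and sex-linked genes were added after their values were seen. Genes without a RefSeq symbol and lincRNAs were left out of the rankings by difference and by bound. Members and lists were chosen with earlier results of these data known. Samples numbered alike deviated together (correlations 0.176, 0.115 and 0.288), so the number was also fitted as a block in an alternative. For quadriceps and the first array of each line the number coincides with the slide, which does not hold for the repeat array of E14tg2 or for the other groups. A comparison of sequence content between calls is not reported, since 79.8% of the protein-coding genes had a window, under the share of 80% set for this. The signal at the 75th percentile was 348, 343 and 261 in quadriceps 1, 2 and 3, against 574 to 681 on the stem cell arrays. The share of spots above background was 54.0%, 48.4% and 43.6% in quadriceps, against 55.0% to 60.1% on the stem cell arrays. The scaling value thus differed between the groups, and its part in the calls and in the counts of genes above background was not tested. No spot was saturated, and the number of arrays limits the precision.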

Additional observations from a re-analysis of the deposited data

Results flagged for a closer look

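The skeletal muscle sample of strain NOD/ShiLtj, which entered no comparison, carried the adult fibre genes. Their summed level was 14288 times the array's 75th percentile in that sample, against 2.80 to 2.93 times in the 3 stem cell lines, and all 12 genes were above every line. Of the 40 pluripotency genes 38 were below every line there, with a summed level of 40.9. It is a single sample with no replicate.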

How the results depend on the processing

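Over 20 alternatives, 281 of 314 called genes named by rule kept call and direction in every alternative that tested them. Another 31 lost the call in at least 1, and 2 reversed. Not every alternative tested every gene, as that limited to genes above background in both groups tested 184 of the 323 named genes. With the mean of all probes of a gene, Tpm3, whose probes disagree, had a difference of 1.52 and Nanog one of -4.16, and the calls of Atp5c1 (-0.33) and Atp2a2 (1.43) were lost. Counting only genes above background in both groups left 3722 genes lower, since fewer genes were tested. Leaving out 1 sample gave 5145 to 5583 genes higher and 5930 to 6209 lower. With the replicate number as a block, 5618 genes were higher and 6544 lower, and it changed no other call among the named genes. Normexp background correction gave 5323 genes higher and 5241 lower, against 5541 and 6439 in the main setting. It moved the median over all genes by 0.20 on the log2 scale. With it, 16 germline genes were lower instead of 22, with a median of -1.71 instead of -4.47. For RNA biogenesis and ribosome assembly, 29 were lower instead of 28. The authors' values gave 4799 genes higher and 5602 lower. The counts on each list without quadriceps 3 were added after seeing the data. Medians of the imprinted, immediate early, keratinocyte and primitive endoderm lists changed sign under some settings. Dim probes give bounds only.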

Other observations

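Further groups of genes were looked at after their values had been seen. Of 11 major urinary protein genes, a near-identical family known from liver, Mup2, Mup4, Mup5, Mup9, Mup17, Mup18 and Mup19 were called higher in quadriceps. Mup6 was called lower, at least 12.7-fold, Mup20 was not called, and Mup3 and Mup21 were not tested. Mup19 had 4.87, 1.61 and 7.77 in quadriceps 1, 2 and 3, against -4.86, -5.42 and -4.98 in stem cells, at least 786-fold higher. Mup18 had 4.05, 0.76 and 6.62 in quadriceps, against -6.85, -6.95 and -6.63 in stem cells, at least 419-fold higher. In Mup18 and Mup19 quadriceps 3 was highest and quadriceps 2 lowest, and which copies the probes read was not tested.

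Host transcripts of some microRNAs also differed, and the array does not measure the mature forms. Mir1a-1hg, host of a muscle microRNA, had 1.06, 1.37 and 1.56 in quadriceps, against -6.71, -6.77 and -6.49 in stem cells, at least 75-fold higher. Mir17hg, host of the miR-17 cluster, had -2.72, -2.34 and -1.01 in quadriceps, against 3.08, 2.68 and 2.72 in stem cells, 28.8-fold lower (limma, adjusted p 0.00139). The groups did not overlap for either transcript. One mature form of each is shown from RefSeq (GRCm38.p6), with its seed, bases 2 to 8, in capitals, and the seeds differ. The form shown for Mir1a-1hg is the 5p arm alone, and which arm is used in muscle was not tested.
mmu-miR-1a-1-5p: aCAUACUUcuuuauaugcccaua
mmu-miR-92a-3p: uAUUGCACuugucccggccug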
